A study of Drosophila melanogaster with 12 samples.

Results

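The genes described here are feedback regulators and targets of epidermal growth factor receptor (EGFR) and mitogen-activated protein kinase (MAPK) signalling: aos, edl, kek1, Mkp3, sty, pnt, Egfr and rl. They were taken as the probe sets annotated to 1 of these genes alone, by current symbol or synonym. Of the 8 genes, 6 were measured, by 8 of the 18769 probe sets tested, and Mkp3 and sty have 2 probe sets each. The remaining 2 genes, pnt and rl, were not analysed here. The list was chosen from what the genes are known to do, with earlier results of these data in view.

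The Drosophila EGFR is a receptor tyrosine kinase that passes its signal through Ras, Raf, MEK and the MAPK Rolled to ETS-family transcription factors. Signalling through it induces several of its own inhibitors, so transcripts of these inhibitors are commonly used as readouts of the pathway. In flies the same kinases also serve the PDGF/VEGF and fibroblast growth factor receptors, and blood cells use the first of these. JAK/STAT signalling, which the study set out to activate, is a separate route from the receptor Domeless to the transcription factor Stat92E.

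Transcripts were measured in Kc167 cells, a line derived from Drosophila embryos that has features of blood cells. Cells received either medium conditioned with Unpaired (UPD), the main ligand of Domeless, or Mock conditioned medium for 30 min, and then plain Schneider's medium. RNA was collected 2, 4 or 10 h after the conditioned medium was first added, from 2 biological replicates of each medium and time, and each sample went on its own Affymetrix array. All 12 samples are from this 1 line and all saw a conditioned medium; none was left in plain medium, so a UPD difference is a difference from Mock conditioned medium. The sources used here do not say how the conditioned media were made.

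Values are log2 signals of probe sets as deposited, and a difference of 1 is a 2-fold change. Signals of different probe sets are not comparable as levels. Bulk RNA cannot tell fewer cells of a kind from less RNA per cell. Of 9 blood cell markers, 7 (srp, Hml, Pxn, Pvr, Col4a1, vkg and ush) lay above the array's median on all 12 arrays, while NimC1 and He did so on 4 and 5 arrays. Among markers of other cell types, elav and msn lay above the median on all 12 arrays, crb and repo on 11, shg on 10, PPO2 on 7, vas on 3, and nSyb, PPO1 and lz on 0. Over the 9384 probe sets whose mean lies above the median of all, called above-median below, replicates had a median SD of 0.083 (UPD) and 0.090 (Mock) at 2 h. At 10 h the same medians were 0.445 and 0.504. The UPD arrays of 10 h stood apart from the rest: over the same 9384 probe sets the median UPD minus Mock difference was −0.11 at 2 h, 0.02 at 4 h and −0.41 at 10 h. The signal of actin Act5C at its 3′ end minus that at its 5′ end was 0.71 to 0.89 at 2 h. It was 0.96 and 0.95 (UPD) and 1.17 and 0.72 (Mock) at 4 h, 1.37 and 1.25 on the UPD arrays of 10 h, and 1.15 and 1.14 on the Mock arrays of 10 h. Another actin control pair did not rise in this way. Its 3′ minus 5′ signal was 0.56 to 0.68 at 2 h, and 0.75 and 0.55 (UPD) and 0.7 and 0.53 (Mock) at 4 h. At 10 h it was 0.58 and 0.55 (UPD) and 0.66 and 0.46 (Mock). The second Mock array of 4 h had a mean hybridisation spike signal of 8.28, against 9.73 to 10.76 on the others, and without it the 4 h UPD minus Mock differences were 0.73 for aos, 0.59 for edl, 0.40 for kek1, and 0.42 and 0.24 for the brighter Mkp3 and sty probe sets. The blood cell markers had a mean level of 5.69 and 6.53 on the UPD arrays of 10 h, against 7.49 and 7.74 on the Mock arrays. At 4 h their mean level was 6.90 and 7.23 with UPD and 7.62 and 7.72 with Mock. Both sets of means take in the dim NimC1 and He, whose lowest values were −1.31 and −2.29, and do not show that each marker was lower. The mean of the 2 epithelial markers at 10 h was 0.74 and 3.02 with UPD and 3.72 and 3.82 with Mock. The part of these shifts in the 4 and 10 h values of the genes below was not tested. The receptor transcript dome, given for reference, differed by 0.92 (UPD minus Mock) at 4 h and by −0.98 at 10 h.

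Argos (aos) is a secreted inhibitor that binds the EGFR ligand Spitz. At 2 h its probe set 1641578_at read 8.38 and 8.44 on the UPD arrays and 7.86 and 7.95 on the Mock arrays. At 4 h it read 8.27 and 8.15 with UPD and 7.48 and 7.51 with Mock. At both times the lower UPD array lay above the higher Mock array. The differences were 0.51 ± 0.29 at 2 h (SE, n = 2 arrays per group; 1.43-fold) and 0.71 ± 0.29 at 4 h (1.64-fold). Of the 9384 above-median probe sets, 457 had a larger difference than aos at 2 h and 421 at 4 h.

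The 4 h difference had an unadjusted p of 0.0418 in the fit of 12 arrays, and over all probe sets limma's adjusted p was 1. A fit of the 8 arrays of 2 and 4 h on the above-median probe sets gave its lowest adjusted p of 20 alternatives, 0.0996, and the highest was 1. At 10 h aos read 7.21 and 7.51 with UPD and 7.56 and 7.16 with Mock, so that the groups overlapped and the difference was −0.01 ± 0.29. The sign at 10 h depended on the scaling: after quantile normalization, which gives all arrays the same distribution, the difference was 0.51 (adjusted p = 0.155; 0.0232 to 0.999 over 19 alternatives). Over the 3 times the average difference was 0.41 ± 0.17 (unadjusted p = 0.044, adjusted p = 0.449). Its adjusted p ran from 0.0064 to 0.712 over 18 alternatives, and it passed under 1, quantile normalization with probe sets below the median level left out.

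The transcript edl encodes a small SAM-domain protein that binds the ETS factors Pointed and Yan and modulates their activity. Its UPD arrays lay above its Mock arrays at each of the 3 times. At 2 h it read 8.58 and 8.51 with UPD and 8.42 and 8.36 with Mock, a difference of 0.16 ± 0.31. At 4 h the values were 8.49 and 8.42 against 7.87 and 7.99, a difference of 0.53 ± 0.31 (1.44-fold, unadjusted p = 0.133). At 10 h they were 7.84 and 8.51 against 7.66 and 7.72, a difference of 0.48 ± 0.31 (1.40-fold, adjusted p = 0.506). The UPD replicates of 10 h were far apart, and leaving out 1 array at a time put that difference between 0.15 and 0.82.

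No difference of edl passed the test in the 12-array fit. After quantile normalization the 10 h difference was 0.86 with an adjusted p of 0.0549, and with probe sets below the median level also left out the adjusted p was 0.00512. That last setting, added after the data had been seen, was the 1 of 19 that passed, and the highest adjusted p was 0.934. The average over the 3 times was 0.39 ± 0.18 (unadjusted p = 0.0654, adjusted p = 0.496).

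**Figure D1:**
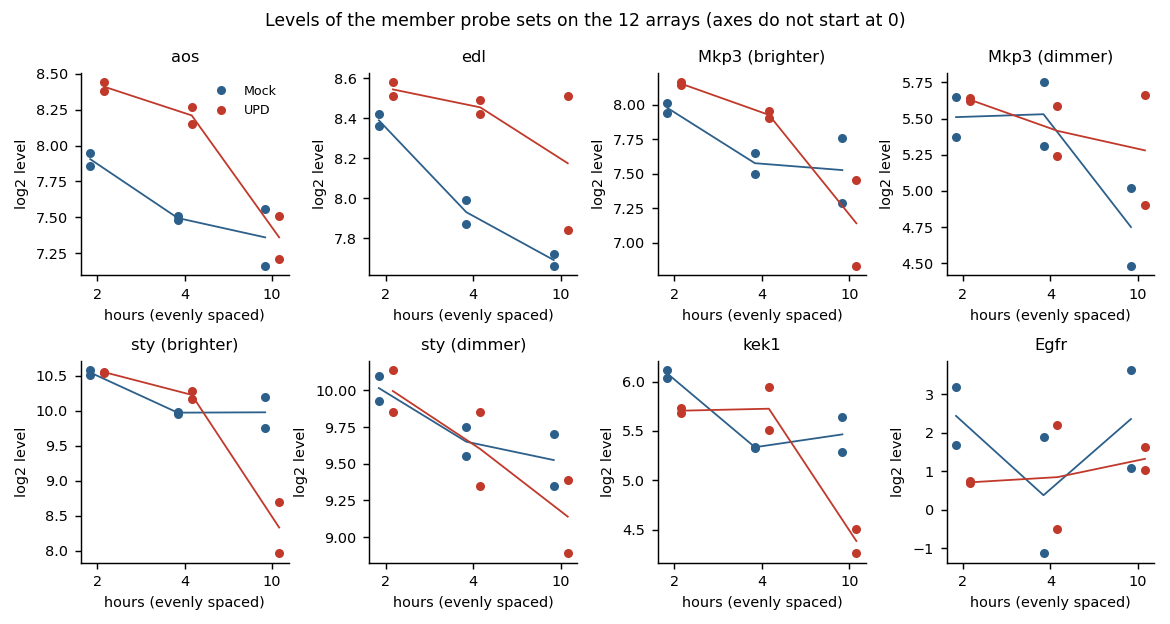
Log2 signal of the 8 probe sets on each of the 12 arrays, by hours after the conditioned medium was added (evenly spaced on the horizontal axis), for UPD and Mock. Points are single arrays and lines join the means of 2 arrays; UPD lies above Mock for aos at 2 and 4 h and for edl at all 3 times, and below it for the brighter sty probe set and for kek1 at 10 h.

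Mkp3 encodes the dual-specificity phosphatase that removes the activating phosphates from Rolled. Its brighter probe set, 1641361_a_at, read 8.14 and 8.16 with UPD and 8.01 and 7.94 with Mock at 2 h. At 4 h it read 7.95 and 7.90 against 7.50 and 7.65. The UPD arrays were the higher ones at both times, by 0.18 ± 0.33 and 0.35 ± 0.33 (1.27-fold at 4 h), and neither difference passed the test. At 10 h the groups overlapped, at 6.83 and 7.45 with UPD and 7.76 and 7.29 with Mock. The 10 h difference of −0.38 ± 0.33 became 0.18 after quantile normalization.

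The dimmer Mkp3 probe set, 1637641_at, overlapped between the media at every time. It read 5.62 and 5.64 against 5.37 and 5.65 at 2 h, and 5.59 and 5.24 against 5.31 and 5.75 at 4 h. At 10 h it read 4.90 and 5.66 with UPD and 5.02 and 4.48 with Mock. Its differences were 0.12, −0.11 and 0.53, so as deposited the 2 probe sets of Mkp3 had opposite signs at 4 and 10 h. After quantile normalization both were above 0 at 10 h, the dimmer one at 1.12 (adjusted p = 0.0551). Its 10 h difference passed under 1 of 19 alternatives, quantile normalization with probe sets below the median level left out (0.00797; highest 0.93), and its 4 h difference ran from −0.34 to 0.11 leaving out each array. Over the 12 arrays they correlated with r = 0.604, a description of arrays that share media and times.

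Sprouty (sty) is an intracellular inhibitor of receptor tyrosine kinase signalling that acts between the receptor and MAPK. Its brighter probe set, 1635677_a_at, read 10.55 and 10.56 with UPD and 10.59 and 10.51 with Mock at 2 h, which overlap. At 4 h it read 10.17 and 10.29 with UPD and 9.99 and 9.96 with Mock, 0.25 ± 0.34 higher with UPD. At 10 h it read 7.96 and 8.70 with UPD and 10.20 and 9.76 with Mock. Both UPD arrays of 10 h lay more than 1 log2 unit below both Mock arrays.

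The 10 h difference of this sty probe set was −1.66 ± 0.34, a 3.15-fold lower signal with UPD. Its unadjusted p was 0.0015 and its adjusted p was 0.0696 by limma's moderated test, so it did not pass the threshold of 0.05. Of the 9384 above-median probe sets, 692 had a lower 10 h difference. The test passed under 5 of 19 alternatives, whose adjusted p ran from 6.41e-05 to 0.721. After quantile normalization the difference was −1.25 with an adjusted p of 0.0175, and without the second UPD array of 10 h it was −2.02 with an adjusted p of 0.0434.

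The dimmer sty probe set, 1635819_at, did not show the same separation. At 10 h it read 8.89 and 9.39 with UPD and 9.70 and 9.35 with Mock, which overlap, and the difference was −0.38 ± 0.34. At 2 h it read 9.85 and 10.14 against 10.10 and 9.93, and at 4 h 9.85 and 9.35 against 9.75 and 9.55. The differences at those times were −0.02 and −0.05. The transcript regions that the 2 sty probe sets target were not analysed here.

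The gene kek1 encodes a transmembrane protein with leucine-rich repeats that binds EGFR and inhibits it. Its probe set read 5.73 and 5.68 with UPD and 6.12 and 6.04 with Mock at 2 h. At 4 h it read 5.51 and 5.94 with UPD and 5.33 and 5.34 with Mock. At 10 h it read 4.26 and 4.51 with UPD and 5.64 and 5.29 with Mock. The arrays of the media did not overlap at any of the 3 times, but UPD was the lower medium at 2 and 10 h and the higher one at 4 h.

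The differences of kek1 were −0.37 ± 0.30 at 2 h, 0.39 ± 0.30 at 4 h and −1.08 ± 0.30 at 10 h. The last is a 2.11-fold lower signal with UPD, with an unadjusted p of 0.00812 and an adjusted p of 0.124. It was −0.46 after quantile normalization (adjusted p = 0.381), and its adjusted p was 0.0175 with probe sets below the median level left out, the 1 of 19 alternatives that passed (highest 0.822).

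Egfr, the receptor itself, was dim: its probe set lay below the array's own median on 10 of 12 arrays, with a mean of 1.35. It read 0.69 and 0.74 with UPD and 3.20 and 1.68 with Mock at 2 h, and −0.51 and 2.21 against −1.13 and 1.89 at 4 h. At 10 h it read 1.62 and 1.03 against 3.64 and 1.08. At 4 h the replicates of each medium lay further apart than the media did, and the SE of each difference was 1.33. At 2 h both UPD arrays lay below both Mock arrays, by −1.72 (unadjusted p = 0.234 in limma), and at 4 and 10 h the groups overlapped. On signals this dim and scattered, no firm order of the groups could be read.

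**Figure D2:**
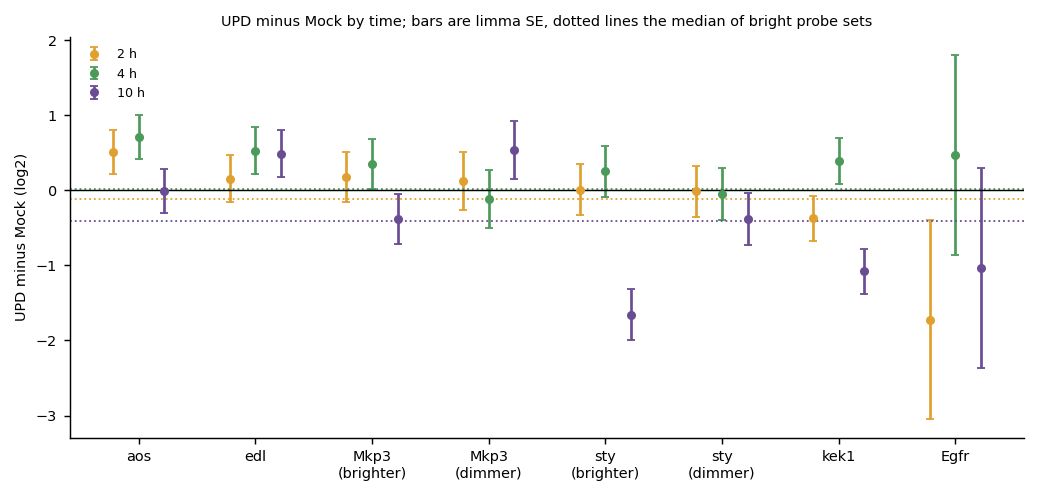
UPD minus Mock log2 difference of the 8 probe sets at 2, 4 and 10 h; points are means of 2 arrays minus 2 arrays and bars are limma's standard errors. The dotted lines mark the median of the 9384 above-median probe sets, −0.11, 0.02 and −0.41; aos and edl lie above it at every time, and the brighter sty probe set lies furthest below it at 10 h.

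Of the 8 probe sets, 0 of the 8 probe sets passed an adjusted p of 0.05 in limma at 2 h, where 0.00533% of all probe sets passed, and none had an unadjusted p under 0.05 (4.42% of all). At 4 h 0 of 8 passed, as did 0% of all probe sets, and aos was the 1 with an unadjusted p under 0.05 (4.03% of all). At 10 h 0 of 8 passed, against 1.06% of all, and 2, the brighter sty probe set and kek1, had an unadjusted p under 0.05 (17.2% of all, 13.4% of all in the lower direction). The quantile-normalized fit called 1 of the 8 at 10 h, the brighter sty probe set. For the average of the 3 times 0 of 8 passed, against 0% of all, and 2 had an unadjusted p under 0.05 (10.8% of all).

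The UPD arrays lay wholly above the Mock arrays for 5 of the 8 probe sets at 4 h (aos, edl, kek1 and the brighter ones of Mkp3 and sty), against 13.9% of all probe sets and 17.9% of the above-median ones. They lay wholly below for 0 of 8, against 19% of all and 15.9% of the above-median ones. At 2 h 3 lay above (aos, edl and the brighter Mkp3) and 2 below (kek1 and Egfr, which is dim). The shares were 11.5% and 31.2% of all (6.79% and 44.3% of the above-median ones). At 10 h 1 lay above (edl) and 2 below (kek1 and the brighter sty), against 13.7% and 24% of all (6.29% and 36.8% of the above-median ones). The median difference of the 8 was 0.07 at 2 h, 0.37 at 4 h and −0.38 at 10 h, beside −0.11, 0.02 and −0.41 over the above-median probe sets. At 10 h the list's median therefore stood near that of the above-median probe sets. It lay above the −0.80 of those in the longest class of genes, described below.

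**Figure D3:**
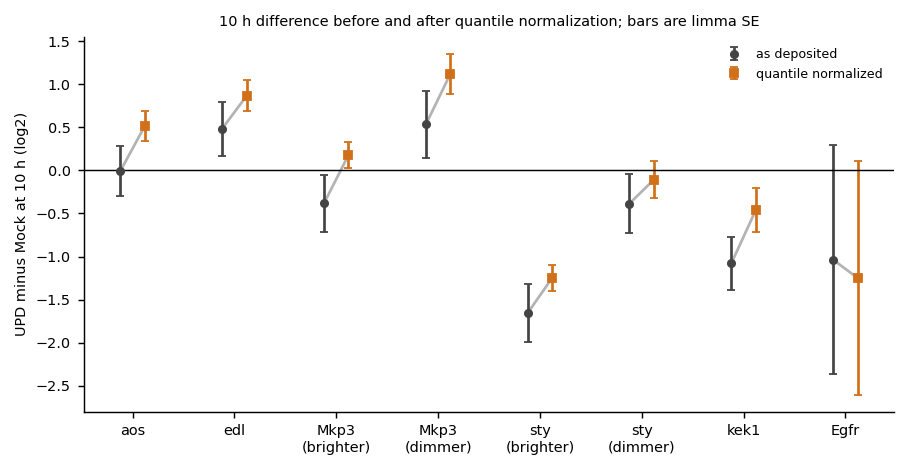
UPD minus Mock log2 difference at 10 h for each probe set, as deposited (circles) and after quantile normalization (squares); bars are limma's standard errors, each from a fit of 12 arrays. The difference of aos moves from −0.01 to 0.51 and that of the brighter Mkp3 probe set from −0.38 to 0.18, while the brighter sty probe set stays below 0 at −1.66 and −1.25.

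Differences between times were also computed within each medium. These share arrays with the UPD minus Mock differences and are not independent of them. From 2 to 10 h in UPD the brighter sty probe set fell by 2.23 ± 0.34 (4.69-fold, adjusted p = 0.0182). Over the same interval kek1 fell by 1.32 ± 0.30 in UPD (2.50-fold, adjusted p = 0.0393). These were the 2 of 8 probe sets called, against 9.46% of all probe sets and 8.46% in the lower direction. At an unadjusted p under 0.05 there were 5, all lower, against 26.9% of all. The median of the above-median probe sets was itself −0.80.

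The sty call stood under 12 of 19 alternatives, with adjusted p from 8.79e-08 to 0.146, and the difference was −1.60 after quantile normalization, with an adjusted p of 0.00862. It was lost when either UPD array of 2 h was left out (0.146 without the first, 0.131 without the second), when either Mock array of 2 h was (0.0579) and when either UPD array of 4 h was (0.0507). The kek1 call stood under 6 of 19 alternatives, with adjusted p from 0.00418 to 0.859. After quantile normalization its difference was −0.12 with an adjusted p of 0.859. It was kept without the second UPD array of 10 h (0.0437) or either Mock array of 10 h (0.025), and lost without any of the other 9. These were the first UPD array of 10 h (0.125), the UPD arrays of 2 h (0.198 and 0.189), either Mock array of 2 h (0.091), either UPD array of 4 h (0.0768) and either Mock array of 4 h (0.072).

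In UPD from 2 to 10 h aos stood at −1.06 ± 0.29 (adjusted p = 0.063) and the brighter Mkp3 probe set at −1.01 ± 0.33 (adjusted p = 0.0975). Quantile normalization took these to −0.17 and −0.09. The aos difference was called without either Mock array of 10 h (adjusted p = 0.0339), and its adjusted p ran from 0.00608 to 0.664 over all alternatives. For edl the same interval gave −0.37, and 0.37 after quantile normalization.

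In Mock medium 0 of 8 probe sets passed from 2 to 10 h, against 0% of all, and 0 had an unadjusted p under 0.05 (14.4% of all). In that medium 7 of the 8 had both 10 h arrays below both 2 h arrays, against 31.4% of all and 49.3% of the above-median probe sets. The differences were −0.54 for aos, −0.70 for edl, −0.56 for the brighter sty probe set and −0.62 for kek1, beside a median of −0.41. From 2 to 4 h in Mock 0 of 8 passed (0% of all), and kek1, at −0.75, was the 1 with an unadjusted p under 0.05 (0.0412, against 4.95% of all; adjusted p = 0.841). In UPD 0 of 8 passed from 2 to 4 h (0.0107% of all).

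Whether the UPD minus Mock difference itself varied between the 3 times was tested with a moderated F test. It called 0 of 8 probe sets, against 0% of all, and 2 had an unadjusted p under 0.05 (8.9% of all), the brighter sty probe set (0.00929, adjusted p = 0.416) and kek1 (0.0289, adjusted p = 0.493).

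**Figure D4:**
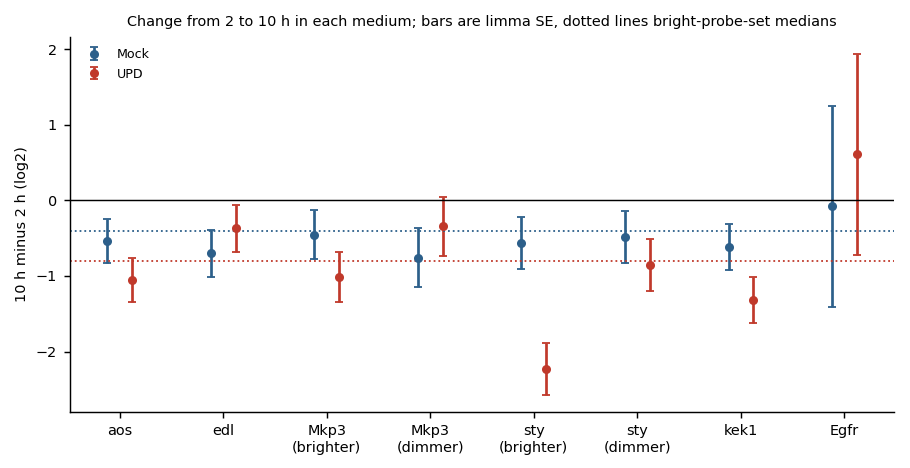
Log2 difference of 10 h minus 2 h within Mock and within UPD for each probe set; bars are limma's standard errors and dotted lines the medians of the 9384 above-median probe sets, −0.41 in Mock and −0.80 in UPD. In UPD the brighter sty probe set, at −2.23, and kek1, at −1.32, lie furthest below the UPD median. Above it lie 3 of the 8 probe sets: edl, at −0.37, the dimmer Mkp3 and Egfr.

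All 6 measured genes are over 4773 bp long in the genome, which places them in the longest of 3 length classes of equal size. Among above-median probe sets of that class the median UPD minus Mock difference at 10 h was −0.80, against −0.11 in the shortest class. From 2 to 10 h the median of the longest class was −1.37 in UPD and −0.67 in Mock. The kek1 fall of 1.32 in UPD was thus near the median of long genes, and that of the brighter sty probe set was larger. At 4 h the longest class had a median UPD minus Mock difference of 0.02 and the shortest of 0.03, beside 0.71 for aos. The part of gene length in these differences was not tested.

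A wider list of 38 other genes of receptor tyrosine kinase signalling was examined, of which 29 were measured and 23 lay above the median level. It holds ligands and their processing, components from receptor to MAPK, nuclear factors, the ubiquitin ligase Cbl, and other receptors that use the same kinases. None passed the test for UPD minus Mock at 2, 4 or 10 h, and an unadjusted p under 0.05 was seen for 0, 0 and 12 of them. At 10 h 17.2% of all probe sets had such a p, 13.4% in the lower direction. All 12 were lower with UPD at 10 h: 3 of 4 ligand genes, 5 of 9 genes from receptor to MAPK, 3 of 3 nuclear factor genes and 1 of 12 genes of other receptors and their ligands. At 4 h the UPD arrays lay above for 2 of the 29 and below for 4, against 13.9% and 19% of all probe sets (17.9% and 15.9% of the above-median ones).

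The medians of the 29 genes were −0.09, 0.03 and −0.76 at 2, 4 and 10 h, the last near the −0.80 of long genes. After quantile normalization the 10 h median was −0.30, 7 had an unadjusted p under 0.05 and 1 passed the test. Of the 23 genes above the median level, 9 passed with low probe sets left out, and 7 with quantile normalization as well. With limma's variance trend and robust option 10 of the 29 passed. All of these calls were lower with UPD. With a common median, the replicate number as a block or the arrays of 10 h alone 0 passed. The 10 h median was −0.50 without the first UPD array of 10 h and −1.13 without the second. Among the genes whose arrays did not overlap at 10 h, ksr, a scaffold for Raf and MEK, differed by −1.65 (unadjusted p = 0.000997, adjusted p = 0.0596). The phosphatase gene csw, which acts downstream of receptor tyrosine kinases, differed by −1.98 (adjusted p = 0.0885). The terminal-system receptor tor, at −0.56 and −1.27 with UPD against −0.46 and 3.14 with Mock, differed by −2.26 on values mostly below the array median. The fibroblast growth factor receptor htl, a dim probe set, differed by 3.71. At 2 h the largest such values were 2.53 for btl, also dim, −0.62 for Nf1, −0.44 for bnl and −0.43 for Krn. At 4 h they were −3.29 for Pvf3, dim, −0.68 for tor, −0.59 for csw and −0.53 for ksr.

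From 2 to 10 h in UPD 12 of the 29 passed, all lower, against 9.46% of all probe sets. The median of the 29 was −1.40. It was −1.44 for the 23 above the median level, beside −1.37 for above-median probe sets of the longest class. The 12 calls depended on single arrays: 0 passed without either array of UPD or Mock at 2 h, either UPD array of 4 h or the first UPD array of 10 h, and 6 without either Mock array of 4 h. After quantile normalization 1 passed and the median was −0.56, and with the arrays of 2 and 10 h alone 0 passed. With a common median for all arrays 12 passed, with the replicate number as a block 7, and with limma's variance trend and robust option 18. Of the 23 genes above the median level, 19 passed with low probe sets left out and 8 with quantile normalization as well. All of these calls were lower. The 12 called in the fit as reported include the EGFR ligand grk and the ligand-trafficking gene S, at −1.41 and −1.76. They include Sos, ksr, cnk and csw between receptor and MAPK, at −1.91, −1.90, −2.05 and −2.60. All 3 measured nuclear factor genes were among them: aop, the ETS repressor Yan, at −1.66, the repressor cic at −2.83, and bs at −1.40. The receptors Pvr and InR were at −1.44 and −1.70. The receptor tor completed them; it read −0.56 and −1.27 on the UPD arrays of 10 h, below the array median, so the size of its difference of −5.09 has no firm meaning. Their adjusted p ran from 0.0202 to 0.0424. In Mock over the same interval 0 passed and 9 had an unadjusted p under 0.05, of which 8 were lower. Among all probe sets 14.4% had such a p, 10.6% in the lower direction. Of the genes called in UPD, InR fell more in Mock, at −2.12 against −1.70, and the others fell less in Mock.

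**Figure D5:**
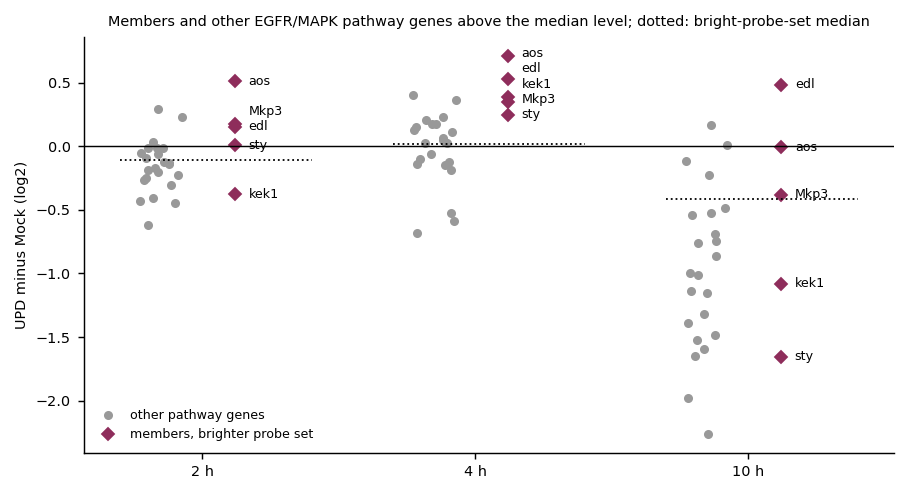
UPD minus Mock log2 difference at 2, 4 and 10 h for the 23 measured genes of the wider list above the median level (circles). Diamonds are the brighter probe sets of aos, edl, Mkp3, sty and kek1, and dotted lines the medians of the above-median probe sets. Egfr and the dim genes of the wider list are not drawn. At 10 h 12 of the 29 other genes have an unadjusted p under 0.05, all lower with UPD, against 13.4% of all probe sets lower at that p, and at 4 h their median was 0.03.

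The genes whose pattern was most like each of these, by Pearson r over the 12 arrays among 7848 probe sets with 1 gene and a mean above the median, were as follows. For aos they were CG32772 (r = 0.975) and CG1628 (0.968), and for edl peg (0.964) and CG1789 (0.963). For the brighter Mkp3 probe set they were ZnT63C (0.983) and CG8026 (0.978). For the brighter sty probe set they were CG13928 (0.997) and CtBP (0.993), and for kek1 Ndf (0.97) and Rpn1 (0.967). For Egfr they were CG42395 (0.842) and arg (0.826). Among the feedback genes themselves the brighter sty probe set and kek1 had r = 0.957, aos and the brighter Mkp3 probe set 0.885, and aos and edl 0.808, while edl and the brighter sty probe set had 0.336. The 12 arrays include those of UPD at 10 h, whose signals were lower at the median, and the correlations are descriptions with no test.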

How the data were processed

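Total RNA of 12 Kc167 samples was labelled from 1 µg and hybridised to Affymetrix arrays, per the labels' protocols. The authors deposited 1 value per probe set and array. These were used as log2 values as deposited; the base is not stated and was inferred from their range, −15.82 to 13.96. Neither the summarising tool nor the normalization is named in the sources used here. The median over all probe sets is 2.327 on each UPD array and 2.375 on each Mock array. It is thus the same within each medium and differs between the media, and every comparison of UPD with Mock arrays crosses this step. Whether the media were processed apart is not stated in those sources. On each array 26.3 to 32.1% of values lie below 0, and no detection calls were used.

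Of 18952 probe sets, 183 controls were left out and 18769 tested. The platform annotation in GEO, with symbols brought up to date by gene ID from RefSeq (Release 6), gave 1 gene to 13647 probe sets (13544 matched by ID), several to 402 and none to 4720. Matching by gene ID kept sty apart from aos, which carries that symbol as an old synonym. No coordinates are given, since the sources used here name no genome build for the array, and no sequence tables were used here.

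In R 4.3.3, limma 3.58.1 fitted 6 group means to the 12 arrays (6 residual degrees of freedom; prior SD 0.57, prior degrees of freedom 1.54). P-values are two-sided and adjusted by Benjamini-Hochberg over all tested probe sets, separately for each contrast; the threshold is 0.05. SE is limma's moderated one. Precision is limited by how few arrays each group has. The fit was tried on simulated data without shifts of whole arrays, with changes larger than any difference of the listed genes. That trial cannot show how well differences of the reported sizes are detected.

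The genes, lists, tests and alternatives were chosen with earlier results of these data known. Every single-gene probe set of a listed gene is reported. Of the wider list, genes past the threshold are named, or at most 4 per contrast with the largest differences among those whose arrays do not overlap. Alternatives were quantile normalization, a common median for all arrays, a low-level filter that leaves out probe sets below the median mean, limma's variance trend with its robust option, fits of fewer times, the replicate number as a block, means over a gene's probe sets, and leaving out each array. Quantile normalization with the low-level filter, and all alternatives for the wider list, were chosen after seeing the data.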

Additional observations from a re-analysis of the deposited data

Results flagged for a closer look

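The UPD minus Mock difference pointed different ways at different times for 2 probe sets, each time with no overlap between the arrays of the media. Such separation was common: among the 9384 probe sets above the median level the UPD arrays lay wholly below at 2 h for 44.3% and at 10 h for 36.8%, and wholly above at 4 h for 17.9%. For kek1 (1634071_at) it was −0.37 at 2 h, 0.39 at 4 h and −1.08 at 10 h. For the brighter sty probe set (1635677_a_at) it was 0.25 at 4 h and −1.66 at 10 h. The moderated F test in limma of a difference between the 3 times gave an unadjusted p of 0.0289 for kek1 (adjusted p = 0.493) and of 0.00929 for sty (adjusted p = 0.416). For sty 2 of 18 alternatives passed the threshold, with adjusted p from 0.00656 to 0.655. None of the 18769 probe sets passed this F test in the fit as reported, where 1671 had an unadjusted p under 0.05.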

How the results depend on the processing

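Numbers of the 8 probe sets called were 0 under every alternative for UPD minus Mock at 2 and 4 h, for Mock from 2 to 4 h and from 2 to 10 h, and for UPD from 2 to 4 h. For UPD minus Mock at 10 h, 0 were called as reported (199 of all probe sets), 1 after quantile normalization (578; 172 higher and 406 lower, against 20 and 179), 2 with low probe sets left out (1804), 1 with a variance trend (1899), 4 with quantile normalization and the low-level filter together (2492), and 0 to 1 leaving out each array. For the average of the 3 times that joint setting called 4 (677), against 0. The variance trend called 1 (299) in the F test between times, against 0. For UPD from 2 to 10 h, 2 were called as reported (1776), 1 after quantile normalization (471), 5 with low probe sets left out (3830), 5 with the variance trend (4020), 0 with the arrays of 2 and 10 h alone (1), 2 with the joint setting (2618; 1225 higher and 1393 lower, against 189 and 1587), and 0 to 3 leaving out each array (1 to 2902 of all). The 2 of the joint setting were the brighter sty and the dimmer Mkp3 (0.87, adjusted p = 0.0183), with kek1 at an adjusted p of 0.739. Calls of the 29 other genes over that interval were 12 as reported and 0 to 16 leaving out each array.

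Signs turned after quantile normalization for UPD minus Mock in the dimmer sty probe set at 2 h (0.06), the brighter Mkp3 at 10 h (0.18) and aos at 10 h (0.51). They also turned for Mock from 2 to 10 h in Egfr (0.06), kek1 (0.14) and both Mkp3 probe sets (0.05 dimmer, 0.04 brighter), for UPD from 2 to 4 h in edl (0.12) and aos (0.01), and for UPD from 2 to 10 h in edl (0.37) and the dimmer Mkp3 (0.87). Bringing all arrays to a common median turned the dimmer sty at 2 h (0.03) and aos at 10 h (0.04). Leaving out each array turned 14 differences at least once, all of them uncalled. These ran, for UPD minus Mock, from −0.16 to 0.13 (dimmer sty, 2 h), −0.03 to 0.05 (brighter sty, 2 h), −0.02 to 0.26 (dimmer Mkp3, 2 h), −1.04 to 1.98 (Egfr, 4 h), −0.30 to 0.20 (dimmer sty, 4 h), −0.34 to 0.11 (dimmer Mkp3, 4 h), −0.21 to 0.20 (aos, 10 h), −2.32 to 0.25 (Egfr, 10 h) and −0.06 to 0.15 (brighter Mkp3, average). Between times they ran from −0.20 to 0.24 (dimmer Mkp3, Mock 4 h minus 2 h), −1.36 to 1.20 (Egfr, Mock 10 h minus 2 h), −0.20 to 0.24 (kek1, UPD 4 h minus 2 h), −1.23 to 1.49 (Egfr, UPD 4 h minus 2 h) and −0.72 to 0.03 (dimmer Mkp3, UPD 10 h minus 2 h). Where a sign or call changed, the cause was not tested.

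Same-numbered UPD and Mock replicates did not deviate together (r = −0.037, −0.033 and −0.048 at 2, 4 and 10 h over 9384 probe sets). These values cannot tell whether same-numbered samples were handled together. With the replicate number as a block, 1 of the 8 was called for UPD from 2 to 10 h (723 of all), and 0 for UPD minus Mock at 10 h (1 of all). Dim probe sets such as Egfr have values near or below 0 with no floor, which limits what can be read from them.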
